A study of Bos taurus with 8 samples.

Results

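The genes described here encode the collagens and the main other proteins of the liver's connective tissue, with markers of the cells that make it. They were chosen by name from the array: every gene whose symbol is that of a collagen chain, and 20 further genes, namely *LUM*, *DCN*, *BGN*, *FBN1*, *FBLN1*, *FN1*, *ELN*, *SPARC*, *POSTN*, *LOX*, *TIMP1*, *TIMP2*, *TIMP3*, *MMP2*, *ACTA2*, *DES*, *PDGFRA*, *PDGFRB*, *RELN* and *THY1*. The rule uses gene symbols alone. They were 41 of the 12603 genes with a probe matched to a gene, and 158 of 43637 probes. In 38 of the 41 genes a probe was well above background, and in each of these 38 it was so on all 8 arrays. *COL11A2*, *COL17A1* and *COL26A1* were not detected, being well above background on at most 1, 2 and 0 arrays. *COL4A2*, *COL5A1*, *COL5A2*, *COL6A3* and *COL14A1* were among 23 collagen genes of the reference with no matched probe, and were not analysed here.

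Fetal livers of Japanese Black cattle were compared between 2 maternal diets. Throughout pregnancy, cows of the LN (low nutrition) group received a diet that met 60% of what they required, while cows of the HN (high nutrition) group received 120%. No group fed the plain requirement was included. The livers were taken at 8.5 months (260 ± 8.3 days) of gestation, and RNA of 1 fetus per array was hybridised to a 1-colour Agilent bovine array, from 4 LN and 4 HN fetuses. Per the study's methods, all dams carried offspring of a single sire, conceived with semen sorted for male calves, and the fetuses were the lightest of the LN group and the heaviest of the HN group, so that body weight and diet cannot be told apart. The design text of the series mentions RNA pooled by group, whereas the labels name 1 fetus for each array, and each array was counted as 1 fetus. The fetuses are named by the labels' numbers, L5, L6, L8 and L9 in LN and L1, L2, L3 and L10 in HN, and values are given in that order.

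In the liver, hepatic stellate cells, portal fibroblasts and vascular smooth muscle make most of the connective tissue. Collagen chains are assembled by threes into triple helices, which form fibrils (types I and III), sheets in basement membranes (type IV) or beaded filaments (type VI). Glycoproteins and small proteoglycans bind the fibrils, lysyl oxidase cross-links them, and matrix metalloproteinases cut them under the control of tissue inhibitors (TIMPs). Stellate cells store vitamin A when quiescent and produce fibrillar collagen and smooth muscle actin when activated, which makes these genes the usual readout of liver fibrosis. In whole liver RNA, fewer cells of a type cannot be told apart from less RNA per cell.

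Between 32635 and 33371 of 43803 spots were well above background on the LN arrays, and between 33254 and 34369 on the HN arrays, with 0 saturated spots. Each diet had a slide and a scan of its own, so slide, scan and diet cannot be told apart. All 9 hepatocyte markers measured, such as *ALB*, *TTR* and *APOA1*, were detected, and their summed signal ranged from 20.97 to 21.03 (log2) in LN and from 20.99 to 21.05 in HN. Of 18 stellate cell markers with a probe, 17 were detected, while *GFAP* was not. Signals are log2 intensities after quantile normalization, a difference is LN minus HN on that scale, and the level of one gene's probe cannot be set against that of another.

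No member differed between the groups after adjustment over all probes: 0 of 38 passed an adjusted p of 0.05 in limma, where the lowest was 0.76, and 0 of 33439 probes (0%) passed in the whole table. By direction, 24 of the 38 genes were lower in LN and 14 higher, which is 63.2% lower against 48.4% of 10860 detected genes, with a median difference of −0.10 against 0.01. Scaling each array to its 75th percentile instead gave 30 of 38 lower, against 54.4% of all genes. At an unadjusted p of 0.05, 2 members were lower and 0 higher, where 2.75% of all genes were lower, 3.3% higher and 6.05% either. The groups did not overlap in 1 member, against 4.14% of all genes in either direction, 1.56% lower and 2.59% higher. More than 1.25-fold lower in LN were 10 members (8.63% of all genes), and more than 1.25-fold higher was 1 (7.82%), *COL2A1*. As shares of 38 genes, these counts of 2 and 1 lay below the background in both directions and above that of lower genes, and with counts this small nothing is read from them. Markers of other cells also leaned one way between the diets: 10 of 11 detected erythroid markers (median 1.1) and 11 of 12 neutrophil markers (median 0.90) were higher in LN, and 6 of 6 lymphocyte (median −0.16), 8 of 9 macrophage (median −0.09) and 5 of 5 skeletal muscle markers (median −0.57) lower. Of these medians, all but the neutrophil one came much nearer 0 with a single fetus left out. The erythroid median was 0.35 without LN L5, the lymphocyte median −0.04 without LN L8 and the macrophage median −0.01 without LN L9. The skeletal muscle median was −0.12 without HN L10, the one fetus where that list was high (deviation 2.05). The neutrophil median stayed between 0.72 (without HN L1) and 1.17 (without HN L3). The summed signals of these lists ranged from 14.91 to 18.21 (log2) in LN and 13.55 to 16.23 in HN for erythroid markers. They were 13.49 to 15.02 and 12.62 to 13.88 for neutrophil, and 12.39 to 12.84 and 12.57 to 13.00 for lymphocyte markers. They ranged from 17.65 to 18.36 and 17.72 to 18.39 for macrophage, and from 8.28 to 9.23 and 8.75 to 10.29 for skeletal muscle markers. The skeletal muscle values rest in part on signal near background: *MYH2* was well above it on only 4 arrays, and *MYL1* lay from 2.47 to 4.11 outside HN L10. *HBE1*, *HBE2*, *SLC4A1*, *KLF1*, *MS4A1*, *MYH1*, *CKM* and *TNNT3* of these lists of other cells were not detected. The part of these cells in the direction of the members was not tested. Of 33 genes with more than 1 detected probe, all probes were lower in LN in 15 and higher in 4, while in 14 the probes pointed in both directions, *ELN*, *DCN*, *MMP2*, *PDGFRB*, *DES* and *COL4A1* among them.

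**Figure D1:**
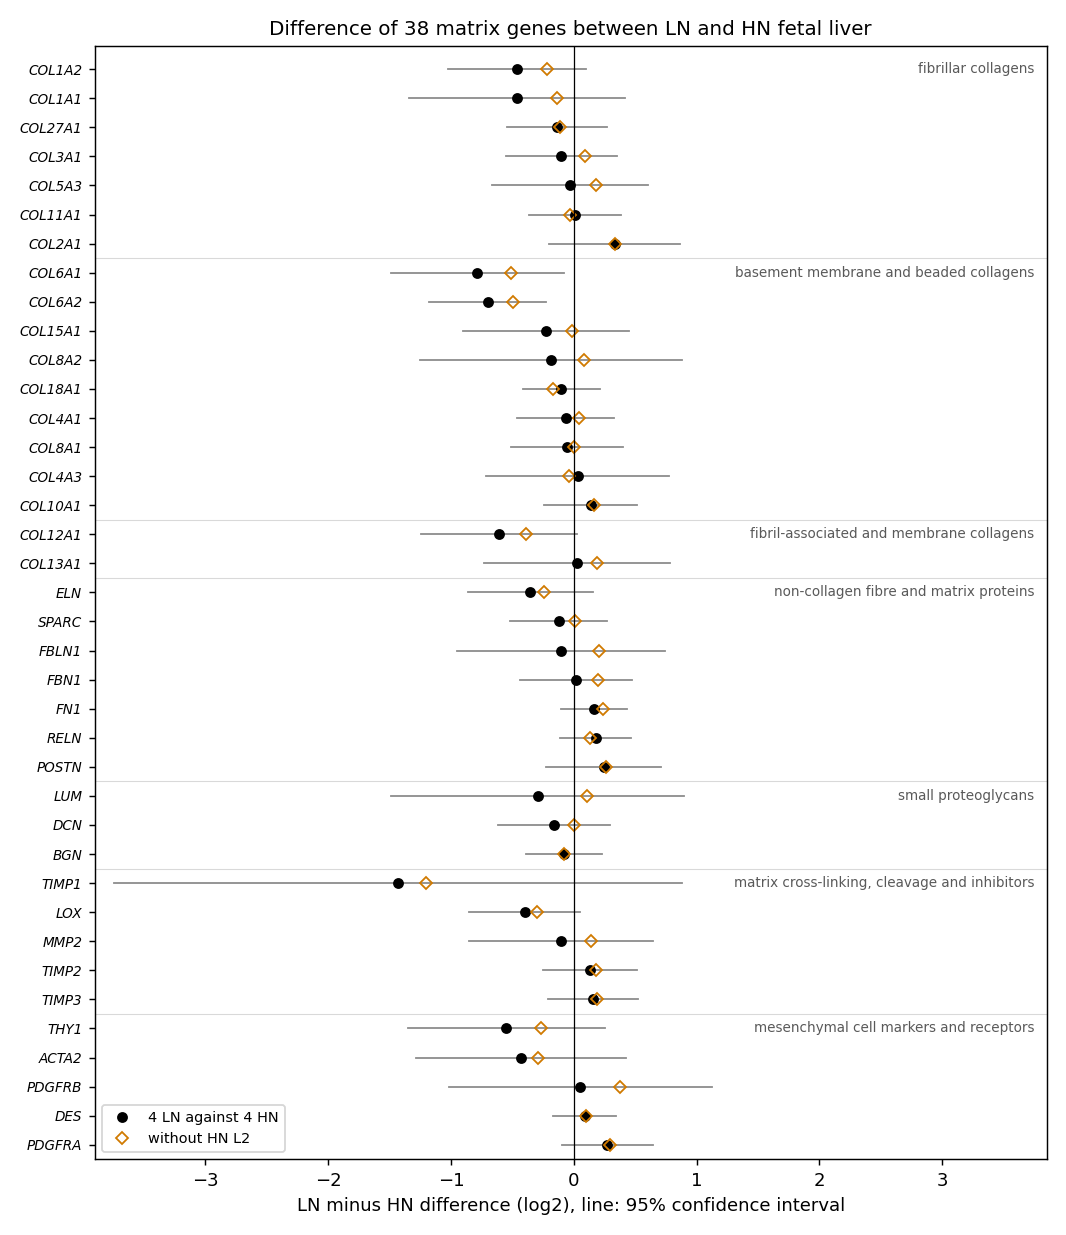
Difference between LN and HN fetal liver (log2, horizontal axis) for the 38 detected genes, grouped by class. Filled points are the difference over 4 LN and 4 HN fetuses, lines its 95% confidence interval, and open diamonds the difference without HN fetus L2; only the intervals of *COL6A1* and *COL6A2* leave out 0, and most diamonds lie to the right of their points.

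Among the fibrillar collagens, which form the tensile fibres, 5 of 7 detected genes lay lower in LN (median difference −0.10). *COL1A1*, a chain of type I collagen, gave 13.26, 12.67, 13.30 and 12.71 in LN and 13.52, 14.43, 12.37 and 13.47 in HN. *COL1A2*, the partner chain, gave 13.61, 13.89, 13.85 and 13.53 in LN and 13.99, 14.92, 13.70 and 14.12 in HN. In both genes HN L2 was the highest of the 8 fetuses, the groups overlapped, and HN L3 lay within or below the LN range. The difference was −0.46 (SE 0.39) for *COL1A1* and −0.46 (SE 0.25) for *COL1A2*, with adjusted p of 0.859 and 0.793 in limma. All 5 probes of *COL1A1* (−0.81 to −0.31) and all 6 of *COL1A2* (−0.57 to −0.46) were lower in LN, and on 1 *COL1A1* probe, which was not the brightest, the groups did not overlap (−0.63, SE 0.19, adjusted p = 0.76 in limma). Without HN L2, the differences were −0.14 and −0.22.

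*COL3A1*, the single chain of type III collagen, was almost level in LN, with 15.19, 15.37, 15.25 and 15.18, and spread in HN, with 15.32, 15.92, 14.92 and 15.23. The LN values lay inside the HN range, and the SD was 0.085 in LN and 0.417 in HN (n = 4 each). Its difference was −0.10 (SE 0.20), and all 10 of its probes were lower in LN, by 0.07 to 0.38, yet without HN L2 it turned to 0.09. *COL5A3*, a minor fibril chain, went the same way, from −0.03 to 0.18. *COL2A1*, the cartilage collagen, was higher in LN by 0.33 (SE 0.23, adjusted p = 0.834 in limma), or 0.22 without LN L5, but its 3 detected probes pointed in both directions. *COL27A1* differed by −0.13. *COL11A1* differed by 0.01, or −0.20 with scaling to the 75th percentile and 0.275 with the mean over its 3 detected probes, all higher in LN.

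The collagens of basement membranes and beaded filaments held the 2 members at an unadjusted p of 0.05, and both were chains of type VI collagen, which forms beaded filaments around cells. *COL6A2* gave 7.20, 7.15, 6.94 and 7.03 in LN and 7.72, 8.40, 7.38 and 7.61 in HN. Every LN fetus was below every HN fetus, and the LN values spanned 0.256 against 1.02 in HN. The difference was −0.70 (SE 0.21, 95% confidence interval −1.17 to −0.23), 1.62-fold lower in LN, with an adjusted p of 0.76 in limma. The 2-sided exact permutation test gave p = 0.0286, the smallest that 4 against 4 fetuses allow. Any gene without overlap gets this value, so it adds nothing to the separation.

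*COL6A1* gave 13.39, 12.99, 13.66 and 13.31 in LN and 14.21, 14.94, 13.33 and 14.02 in HN. Here 3 of the HN fetuses were above all LN fetuses, and HN L3 lay among them. The difference was −0.78 (SE 0.31, 95% confidence interval −1.49 to −0.08), 1.72-fold lower in LN, with an adjusted p of 0.783 in limma and an exact permutation p of 0.0857. The genes are neighbours on chromosome 1 in the ARS-UCD2.0 annotation, and each has 3 detected probes, all lower in LN (−1.10 to −0.40 for *COL6A1* and −0.70 to −0.54 for *COL6A2*). With HN L2 left out, the differences were −0.51 and −0.49, and the groups still did not overlap in *COL6A2*. This separation was on its brightest probe alone: on the other 2 the groups overlapped (−0.70, SE 0.34 and −0.54, SE 0.33, adjusted p = 0.787 and 0.813 in limma), as they did on the mean over the 3 probes. On the brightest probe *COL6A2* stayed at an unadjusted limma p below 0.05 with each fetus left out in turn, and *COL6A1* did so only with LN L8 or HN L3 left out.

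*COL4A1*, a chain of the basement membrane network, gave 12.59, 12.64, 12.83 and 12.21 in LN and 12.62, 12.95, 12.37 and 12.60 in HN. The groups overlapped, with LN L9 the lowest and HN L2 the highest, and the difference was −0.07 (SE 0.17). Of the other detected genes in the class, *COL15A1* (−0.22), *COL8A2* (−0.18), *COL18A1* (−0.10), whose protein releases endostatin, and *COL8A1* (−0.06) were lower in LN. *COL10A1* (0.14), grouped here though not a collagen of basement membranes or beaded filaments, and *COL4A3* (0.03) were higher. Both were at −0.03 with scaling to the 75th percentile. In all of these other genes the groups overlapped. Without HN L1 *COL18A1* differed by −0.02, and without LN L6 *COL10A1* differed by 0.04. The 7 of 9 lower in the class and the 5 of 7 among fibrillar collagens made 13 of 18 detected collagens with the fibril-associated *COL12A1*, and without HN L2 the count was 10 of 18 with a median of −0.02.

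*COL12A1*, which lies along type I fibrils, gave 9.24, 8.57, 8.96 and 8.49 in LN and 8.83, 10.08, 9.22 and 9.55 in HN. HN L2 was the highest, and HN L1 and L3 lay within the LN range. The difference was −0.61 (SE 0.28, adjusted p = 0.785 in limma), its 2 probes were both lower in LN, and without HN L2 it was −0.39. *COL13A1*, a membrane collagen, differed by 0.03 (SE 0.33), or −0.06 with scaling to the 75th percentile.

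**Figure D2:**
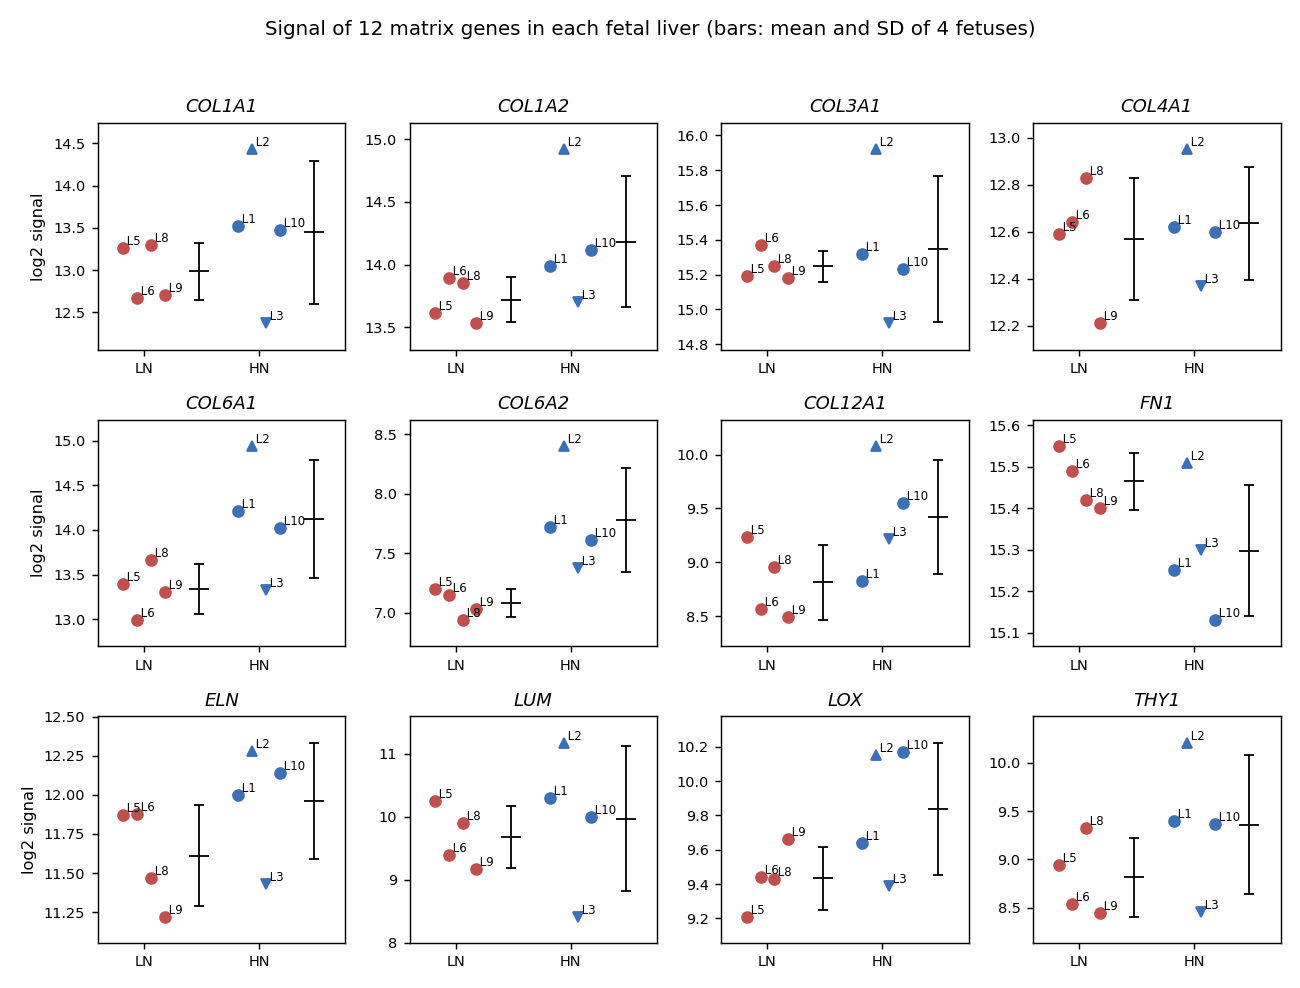
Log2 signal (vertical axis, own scale in each panel) of 12 genes in the 4 LN (red) and 4 HN (blue) fetuses, with the mean and SD of each group in black and each fetus named. HN L2 (upward triangle) is the highest of the 8 fetuses in 10 of the 12 panels, all but *FN1* and *LOX*, and the groups are apart only for *COL6A2*.

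The non-collagen matrix proteins did not share a direction, with 3 of 7 lower in LN. *ELN*, the elastin of vessel walls, gave 11.87, 11.88, 11.47 and 11.22 in LN and 12, 12.28, 11.43 and 12.14 in HN. HN L1, L2 and L10 were above all LN fetuses and HN L3 lay among them, for a difference of −0.35 (SE 0.22, adjusted p = 0.824 in limma), which ranged from −0.22 without LN L9 to −0.53 without HN L3. *SPARC*, a collagen-binding glycoprotein, gave 15.56, 15.59, 15.74 and 15.26 in LN and 15.60, 16.06, 15.35 and 15.63 in HN, and its difference of −0.12 (SE 0.17) was 0.01 without HN L2. *FBLN1*, a fibulin of elastic fibres and basement membranes, went from −0.10 to 0.21 in the same way.

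The other 4 of the class were higher in LN. *FN1*, fibronectin, gave 15.55, 15.49, 15.42 and 15.40 in LN and 15.25, 15.51, 15.30 and 15.13 in HN, so that HN L2 alone lay within the LN range. The difference was 0.17 (SE 0.12), or 0.01 with the mean over its detected probes. Of its 13 probes, 8 were higher in LN and 5 lower. Without HN L2 the groups did not overlap (0.24), while without HN L10 the difference was 0.11. *RELN*, the glycoprotein reelin, which stellate cells make in the liver, gave 13.23, 13.08, 12.91 and 12.84 in LN and 12.86, 12.69, 12.93 and 12.86 in HN. Its difference was 0.18 (SE 0.13, adjusted p = 0.834 in limma), or 0.11 without LN L5, the groups overlapped, and all 5 probes were higher in LN. *POSTN*, periostin, differed by 0.24 with all 3 probes higher, its highest value was LN L6, and without LN L6 the difference was 0.03. *FBN1*, fibrillin, differed by 0.02, or −0.14 with scaling to the 75th percentile.

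All 3 small proteoglycans, which coat collagen fibrils, were lower in LN. *LUM*, lumican, gave 10.25, 9.40, 9.90 and 9.17 in LN and 10.30, 11.18, 8.41 and 9.997 in HN. HN L2 was the highest and HN L3 the lowest of the 8, a span of 2.77 within the HN group, and the LN fetuses lay between them. The difference was −0.29 (SE 0.53), −0.81 without HN L3 and 0.11 without HN L2. *DCN*, decorin, the neighbour of *LUM* in the annotation, gave 14.42, 14.79, 14.62 and 14.30 in LN and 14.65, 15.19, 14.30 and 14.64 in HN, for −0.16 (SE 0.20). *BGN*, biglycan, gave 14.33, 14.55, 14.59 and 14.10 in LN and 14.56, 14.48, 14.43 and 14.43 in HN. HN L2 did not stand out in *BGN*, whose difference was −0.08 (SE 0.14).

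Of the genes for cross-linking and cleavage, *LOX*, lysyl oxidase, gave 9.21, 9.44, 9.43 and 9.66 in LN and 9.64, 10.15, 9.39 and 10.17 in HN. HN L2 and L10 were above the others, and the difference was −0.40 (SE 0.20, adjusted p = 0.787 in limma). *MMP2*, a gelatinase, gave 8.96, 8.14, 8.96 and 8.11 in LN and 8.69, 9.39, 7.95 and 8.56 in HN, for −0.11 (SE 0.33), and 0.14 without HN L2. *TIMP2* and *TIMP3*, inhibitors of metalloproteinases, differed by 0.13 and 0.16, or by 0.03 for *TIMP2* without LN L6 and 0.03 for *TIMP3* without LN L8.

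*TIMP1*, the third inhibitor, was the only member more than 2-fold different, against 1.19% of all genes, and this rested on 1 fetus. The brighter probe gave 5.59, 10.59, 10.39 and 10.18 in LN and 10.40, 11.30, 10.14 and 10.63 in HN. LN L5 was 4.92 log2 units, or 30.4-fold, below the mean of the other 7 fetuses. The dimmer probe gave 3.46 in LN L5, and 8.19, 8.32, 7.93, 8.37, 9.31, 7.63 and 8.38 in the others, so both probes showed the same fetus low, each well above background there. The difference of −1.43 (SE 1.02, adjusted p = 0.835 in limma) was −0.23 (SE 0.27, adjusted p = 0.913) without LN L5.

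The gap between LN L5 and the next fetus in *TIMP1*, 4.54, ranked second of 10860 genes. It was at least 4 in 3 genes, the others being *PRSS2*, low in LN L9, and *CHRDL1*, low in HN L10. Of the 6 detected genes around *TIMP1* on the X chromosome of the annotation, chosen after its values were seen, none was low in this way: *USP11*, for one, was 12.95 in LN L5 and 12.97 to 13.32 in the others. In LN L5 the 11 detected erythroid markers, such as *HBB*, had a median deviation of 3.15 above their mean over the 8 fetuses, and *ACTA2* was at its lowest. Whether these belong to the low *TIMP1* was not tested.

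**Figure D3:**
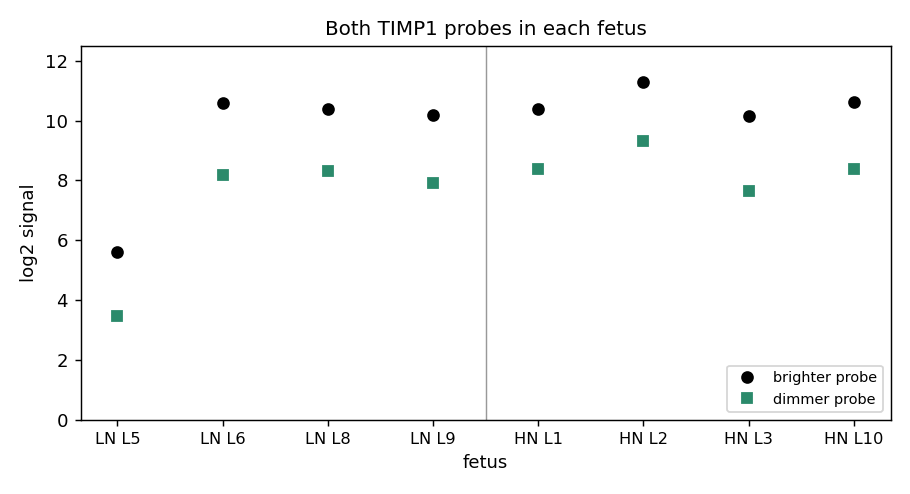
Log2 signal (vertical axis) of the brighter (circles) and dimmer (squares) *TIMP1* probe in each of the 8 fetuses. In LN L5 the probes lie at 5.59 and 3.46, while the other 7 fetuses lie between 10.14 and 11.30 and between 7.63 and 9.31.

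The markers and receptors of matrix-producing cells varied in both directions. *THY1*, a surface protein of portal fibroblasts, gave 8.94, 8.54, 9.33 and 8.44 in LN and 9.40, 10.21, 8.45 and 9.37 in HN. HN L1, L2 and L10 lay above all LN fetuses and HN L3 near the lowest of them, for a difference of −0.55 (SE 0.35, adjusted p = 0.825 in limma). Without HN L2 it was −0.26 and without HN L3 −0.85. *ACTA2*, the smooth muscle actin of activated stellate cells and of vessel walls, gave 13.11, 14.18, 14.96 and 14.14 in LN and 14.77, 14.95, 13.95 and 14.43 in HN. LN L5 was the lowest, and the difference of −0.43 (SE 0.38) was −0.10 without it.

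*PDGFRA*, a receptor for platelet-derived growth factor, gave 8.98, 9.27, 8.81 and 9.08 in LN and 9.04, 8.82, 8.76 and 8.43 in HN, and all 6 probes were higher in LN. The groups overlapped, and the difference was 0.27 (SE 0.16, adjusted p = 0.807 in limma), or 0.16 without HN L10. *PDGFRB*, the receptor typical of stellate cells, gave 4.81, 4.08, 4.87 and 4.53 in LN and 4.61, 5.48, 3.02 and 4.95 in HN. HN L2 was again the highest and HN L3 the lowest, and the difference was 0.05 (SE 0.47), or −0.14 with scaling to the 75th percentile. *DES*, desmin, a filament protein of stellate and muscle cells, gave 10.87, 10.89, 10.98 and 10.81 in LN and 10.87, 10.84, 10.60 and 10.89 in HN. HN L3 was the lowest, and the difference of 0.09 (SE 0.11) was 0.02 without it.

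The members varied between fetuses of a group, with a median SD within groups of 0.317 against 0.232 over all genes. Their median absolute difference between groups was 0.162, against 0.138. HN L2 held the highest value of the 8 fetuses in 20 of 38 members, against 12.8% of all genes. HN L3 and LN L9 held the lowest in 10 each, against 11.7% and 10.9% of all genes. The median over members of the deviation from each gene's mean was 0.50 in HN L2, −0.24 in HN L3 and −0.17 in LN L9, and −0.02 to 0.03 in the other 5 fetuses. Within HN, L2 was the highest and L3 the lowest in 21 members, against 12.7% of all genes. The SD was larger in HN than in LN for 23 members, against 46.7% of all genes, with a median SD of 0.372 in HN and 0.294 in LN (0.212 and 0.222 over all genes). The array of HN L2 also had the most spots well above background, 34369, and its part in these values was not tested.

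Most differences moved with single fetuses. With 1 fetus left out, 18 of the 38 members turned direction, and in 18 more the difference fell by over 1.5 times in size. It did not in the other 2, *COL6A2* and *LOX*. The sign of the median difference likewise depended on which HN fetus was left out. Without HN L2, 16 of 38 members were lower in LN, 42.1% against 48.1% of all genes, with a median of 0.02, and *COL3A1*, *COL5A3*, *LUM*, *SPARC*, *FBLN1*, *MMP2* and *DCN* were among those no longer lower. Without HN L3, 28 of 38 members had a lower mean in LN (median −0.22), against 46.8% of all genes lower. Then 8 members, all lower, had an unadjusted limma p of 0.05 or less, against 7.76% of all genes and 3.61% lower: *COL1A1*, *COL1A2*, *COL6A1*, *COL6A2*, *ELN*, *LOX*, *LUM* and *THY1*. In 6 of these, all but *LOX* and *LUM*, the groups then did not overlap, against 9.4% of all genes and 3.65% lower.

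**Figure D4:**
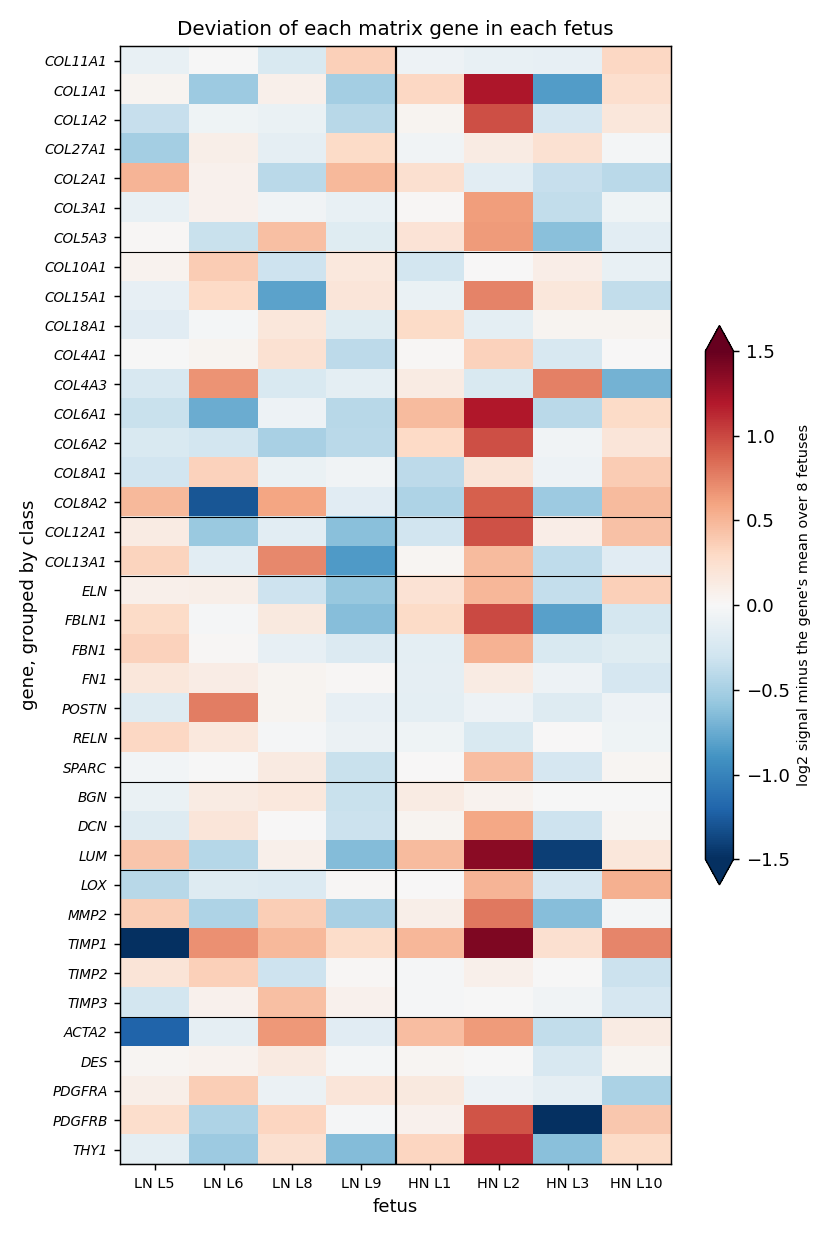
Log2 signal of each of the 38 detected genes (rows, grouped by class) in each fetus (columns) minus the gene's mean over the 8 fetuses, from blue (lower) to red (higher), with colours ending at 1.5 either way. The column of HN L2 is red over most classes (median 0.50), those of HN L3 and LN L9 are mostly blue (median −0.24 and −0.17), and *TIMP1* in LN L5 is past the end of the scale.

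The rest of the matrix programme was taken from lists that do not use the members. Among enzymes and chaperones that process collagen, 15 of 25 detected genes lay lower in LN (median difference −0.05), and without HN L2 it was 12 of 25 (median 0.01). *LOXL4*, a lysyl oxidase relative, was higher in LN by 0.85 (SE 0.29, adjusted p = 0.76 in limma), with 13.37, 13.63, 13.16 and 13.07 against 12.35, 12.49, 13.23 and 11.75, while *LOX* itself lay the other way. *PCOLCE2*, an enhancer of procollagen cleavage, was higher by 0.39 and *TGM2*, a cross-linking transglutaminase, lower by 0.51, both at an unadjusted p below 0.05. The 30 other proteoglycans and glycoproteins had 23 lower in LN and a median of −0.15, with 16 of 30 highest in HN L2. Their leading members were *MFAP4* (−0.66) and *TNXB* (−0.66), and *ECM1* gave 0.46. Without HN L2, 16 of the 30 were lower, the median was −0.02, and the differences were −0.36 for *MFAP4* and −0.22 for *TNXB*.

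Matrix proteases and their inhibitors had 17 of 24 higher in LN, with a median of 0.05, or 0.11 without HN L3. *ADAMTS1*, a protease of large proteoglycans, gave 13.56, 14.12, 14.22 and 14.43 in LN and 13.39, 13.31, 13.37 and 13.59 in HN, where only LN L5 lay within the HN range (0.67, SE 0.19, adjusted p = 0.76 in limma). *SERPINE2*, an inhibitor of serine proteases, was higher by 0.40 without overlap, as 1 of the 24, where 2.59% of all genes were so. *ADAMTS4* gave 0.84 (SE 0.665, adjusted p = 0.853 in limma) with overlap, and 0.33 without LN L9. In transforming growth factor beta signalling, the main inducer of collagen genes, 12 of 21 were higher, with a median of 0.06 that ranged from 0.00173 without LN L9 to 0.16 without HN L3. *ACVR1*, a type I receptor of the family, was higher by 0.43 without overlap, as 1 of the 21 (2.59% of all genes). *INHBE*, well above background on 3 LN and 2 HN arrays, gave a difference of 1.19 (SE 1.05), which rests in part on values near background and ranged from 0.68 without LN L8 to 2.33 without LN L9. Of 16 ligands of the platelet-derived growth factor family and collagen receptors 10 were lower, among them *SDC2* (−0.25, and −0.12 without HN L2). *ITGA2* gave 0.45 (SE 0.23), though it was well above background on only 3 LN and 1 HN arrays. No gene of these lists passed an adjusted p of 0.05 in limma.

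Of the 17 detected stellate cell markers outside the members, 11 were higher in LN, with a median difference of 0.15 (0.07 with scaling to the 75th percentile and 0.09 without LN L9). In HN L2, 3 of them were highest and their median deviation was −0.12, against 20 of 38 and 0.50 for the members. *BMP10*, a growth factor of the bone morphogenetic protein family, gave 5.65, 4.41, 4.58 and 4.84 in LN and 3.90, 3.84, 3.45 and 3.39 in HN. All LN fetuses were above all HN fetuses (1.23, SE 0.27, adjusted p = 0.723 in limma), as in 1 of the 17 markers and 2.59% of all genes. *HGF*, hepatocyte growth factor, was higher by 0.53. The summed signal of the list ranged from 16.83 to 17.36 (log2) in LN and from 16.91 to 17.40 in HN.

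Some markers of other cells were also high in HN L2. Of 3 mesothelial markers, which label the liver's outer lining, all were lower in LN. Their median deviation in HN L2 was 0.99, with *UPK3B* at 7.95 there against 6.45 to 7.25 in the other fetuses. Without HN L2, *MSLN* turned from −0.07 to 0.33, and *UPK3B* went from −0.63 to −0.40. The third, *UPK1B*, was 14.61 in HN L2 and highest in HN L3, at 15.07. Their summed signal, most of it from *UPK1B*, was 14.65 in HN L2 and ranged from 14.25 to 14.78 in LN and from 14.63 to 15.08 in HN. Of 9 smooth muscle markers 6 were lower in LN, *TAGLN* (−0.63) and *TPM2* (−0.48) most. Both of these were highest in HN L2 and lowest in LN L5, and the list's median deviation was 0.31 in HN L2 and −0.57 in LN L5. Without LN L5 the difference in *TAGLN* was −0.34, and without HN L2 that in *TPM2* was −0.31. Its summed signal ranged from 14.37 to 15.07 in LN and from 14.68 to 15.11 in HN. In HN L2 the median deviation was also above 0 for neutrophil (0.41) and cholangiocyte (0.21) markers. It was −0.02 for hepatocyte, −0.16 for lymphocyte, −0.22 for endothelial, −0.42 for skeletal muscle, −0.49 for macrophage and −0.59 for erythroid markers. The part of these cells in the values of the members was not tested.

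**Figure D5:**
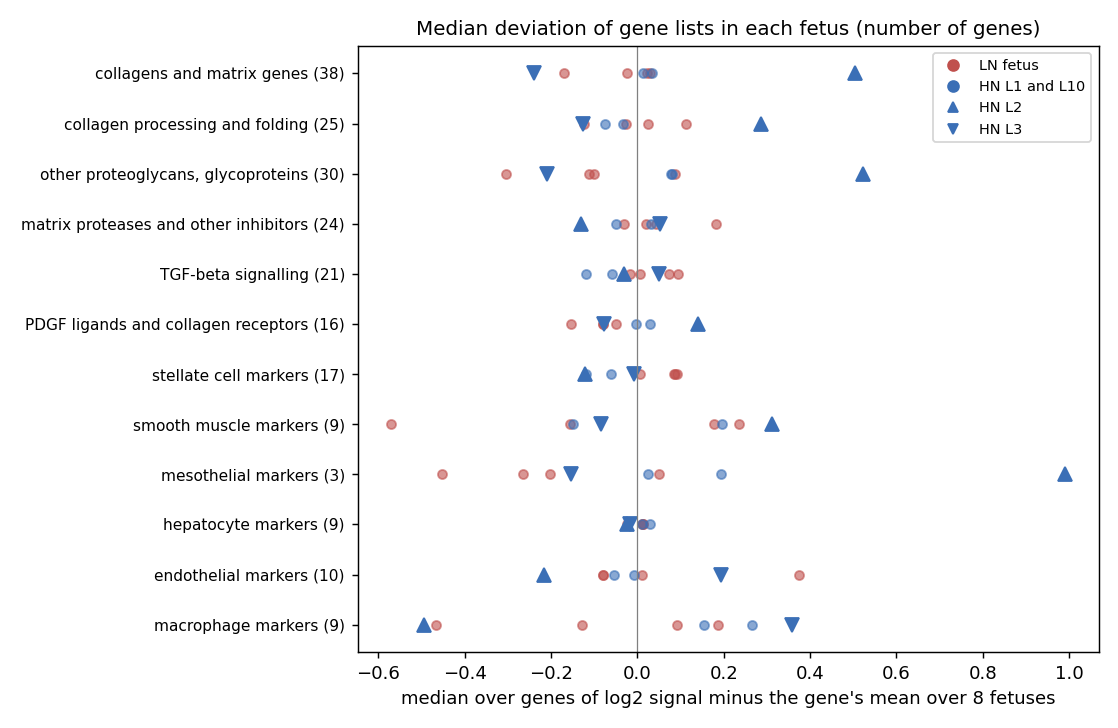
Median over the genes of a list of the log2 signal minus each gene's mean over 8 fetuses (horizontal axis), for the 38 matrix genes and 11 other lists, with 1 point per fetus (LN red, HN blue). HN L2 (upward triangles) lies at 0.50 for the matrix genes, 0.52 for the other proteoglycans and glycoproteins and 0.99 for the mesothelial markers, and at −0.12 for the stellate cell markers.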

How the data were processed

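The authors deposited, for each array, the processed intensity that Agilent Feature Extraction 11.0.1.1 gives every spot after background subtraction and detrending, with no normalization between arrays. A second file deposited by the authors holds log2 values of 31068 probes, quantile normalized in GeneSpring GX per the methods. Its probes are those well above background on every array, and its values were recovered from the intensities within 0.001.

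From the intensities, control and outlier spots were removed, replicate spots were averaged as log2 values, and the 43637 remaining probes were quantile normalized. Detection required a signal well above background on 4 or more of the 8 arrays. Accessions matched 26740 probes to genes of the ARS-UCD2.0 annotation, and a gene took its detected probe with the highest mean. The array was designed on UMD 3.1, so no coordinates are given. Diets were compared in R 4.3.3 by limma 3.58.1 (lmFit and eBayes, 2-sided, Benjamini-Hochberg over 33439 detected probes) and by exact permutation over all 35 divisions of 8 fetuses into 4 and 4. The functions were tested on simulated data. Members and lists were chosen with earlier results of these data known. Every detected member could be named, with values by fetus for the 10 largest differences, those at an unadjusted p of 0.05 or without overlap, and a set of standard matrix genes. Genes of other lists were named at an unadjusted p of 0.05 or as the 2 largest differences of their list. The alternatives were scaling to the 75th percentile, normexp (offset 50), the authors' table, other filters, trend and robust settings, position as a block, the mean over probes, and each fetus left out.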

Additional observations from a re-analysis of the deposited data

Results flagged for a closer look

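In 5 of 76 groups of 4 fetuses examined over the 38 members, 1 fetus lay apart from the other 3, where 3.8 of 76 would be so by chance (1 in 20). In LN, *TIMP1* was 5.59 in L5 against 10.18 or more in the others, and *COL4A3* was 8.36 in L6 against 7.54 or less. In HN, *FBN1* was 6.09 in L2 against 5.42 or less, *COL11A1* was 4.95 in L10 against 4.56 or less, and *DES* was 10.60 in L3 against 10.84 or more. Of these, only *TIMP1* differed by more than 2-fold between the groups, and without LN L5 its difference went from −1.43 to −0.23.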

How the results depend on the processing

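No member passed an adjusted p of 0.05 in limma under any of the 8 processing alternatives or with any fetus left out (lowest 0.454, where 2 members had an unadjusted p of 0.05 or less in the main comparison). With position on the slide as a block, 1 member (*COL6A2*) had an unadjusted p of 0.05 or less (4.61% of all genes). With trend and robust settings (6.76%) and with the mean over probes (6.8%) there were 3, *COL12A1* added, with no filter on dim probes (7.32%) also 3, *COL11A2* added, and 1 to 8 with a fetus left out, where 3.76% to 7.76% of all genes had. The groups did not overlap in 2 members with no filter on dim probes, the second being the undetected *COL11A2* (4.27% of all genes), in 0 with the mean over a gene's probes (4.12%), and in 1 to 6 with a fetus left out (5.55% to 9.4% of all genes). The highest counts, 8 and 6, came without HN L3, where 7.76% and 9.4% of all genes met the same limits. With a fetus left out, the number of members lower in LN ranged from 16 (without HN L2) to 28 (without HN L3), and under the processing alternatives it reached 30 (scaling to the 75th percentile). With a fetus left out, the median difference ranged from −0.215 to 0.024. The direction held in 31 of 38 members under the 8 processing alternatives, in 20 with each fetus left out, and in 18 under both. With scaling to the 75th percentile it turned in *COL10A1* (−0.0314), *COL11A1* (−0.199), *COL13A1* (−0.063), *COL4A3* (−0.0313), *FBN1* (−0.14) and *PDGFRB* (−0.142), with normexp in *PDGFRB* (−0.0188), and with the mean over probes in *COL4A3* (−0.0281), *DES* (−0.0192) and *PDGFRB* (−0.0279). With a fetus left out it turned in 18 members, over these ranges: *BGN* (−0.146 to 0.0175), *COL11A1* (−0.111 to 0.11), *COL13A1* (−0.21 to 0.314), *COL15A1* (−0.384 to 0.00346), *COL27A1* (−0.253 to 0.0128), *COL3A1* (−0.241 to 0.0904), *COL4A1* (−0.156 to 0.0528), *COL4A3* (−0.2 to 0.29), *COL5A3* (−0.244 to 0.179), *COL8A1* (−0.194 to 0.0617), *COL8A2* (−0.411 to 0.213), *DCN* (−0.296 to 0.000934), *FBLN1* (−0.391 to 0.208), *FBN1* (−0.0947 to 0.195), *LUM* (−0.814 to 0.109), *MMP2* (−0.338 to 0.142), *PDGFRB* (−0.443 to 0.377) and *SPARC* (−0.227 to 0.00882). The causes were not tested. The number of arrays, 4 per group, limits the precision of each difference. No paired analysis was possible because the fetuses of the 2 groups share no replicate numbers and nothing in the labels pairs them. The block above is the array's position alone.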
